A study of Mus musculus with 44 samples.

Results

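The genes described here lie on either side of Kdm5b on mouse chromosome 1. A gene was taken if its midpoint lay from 109.6 to 159.6 Mb (GRCm38), within 25 Mb of Kdm5b, and if its mean level over 36 RNA sequencing libraries was at least 1 CPM, the count of a gene scaled to the size of its library. Kdm5b itself, C1ql2, Cacna1e and genes with symbols starting with Kcn or Zfp were left out. The files hold 285 genes of the window, of which 5 were left out by name and 93 were under the minimum. This left 187 genes, of 14577 genes with at least 1 CPM and 27179 genes in the files. They comprise 184 protein-coding genes, 2 lncRNA genes and 1 pseudogene, with 93 at lower and 94 at higher coordinates than Kdm5b. Their mean level ran from 1.02 CPM for Tnnt2 to 1318 CPM for Glul, with a median of 25.5 CPM, and since this level chose the genes it is given as a description.

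RNA came from the dorsal hippocampus, with 1 library from each of 36 adult mice. WT mice were compared with mice homozygous for Kdm5bΔARID, a deletion that shortens the JmjN domain and removes the ARID domain of the protein. Mice were either naive (0 h) or sampled 1 h or 3 h after contextual fear conditioning, in which a mouse receives foot shocks in a new chamber. Each genotype and time point has 6 mice, 3 labelled male and 3 labelled female. Mutant males of C57BL/6J background were mated to 129S2/Sv females, and both genotypes came from an intercross of the F1 offspring. Around Kdm5b, homozygous mutants therefore carry the chromosome that came with the allele and WT mice carry the 129S2/Sv one, up to the nearest crossover. The Kdm5b genotype and the strain of origin of linked genes cannot be told apart in these mice.

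KDM5B removes methyl groups from lysine 4 of histone H3, and trimethylation of this residue marks the promoters of active genes. Alleles on the same chromosome as a targeted gene are inherited with it until recombination separates them. Genes carried along in this way are called passengers, and a strain variant in a passenger can alter its expression whatever the targeted gene does. The comparisons below ask how the genotype difference of the linked genes varied with distance from Kdm5b and with time after training.

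Library totals ran from 40274435 to 107000233 counts. Sex transcripts contradicted the label in 2 libraries. WT 1 h male 1 had 51186 Xist reads and 0 reads over 4 Y-linked genes, against 18 to 155 Xist reads in the other 17 male-labelled libraries. For mutant 3 h female 2 there were 36 Xist reads and 10239 Y-linked reads, against at most 32 Y-linked reads in the other 17 female-labelled libraries. Both stay under their labels here, and the counts of genes that passed are given with and without them. Of 36 libraries, 4 resembled the other genotype in most of the linked genes that passed without them, a count described with its limits at the end. Markers of hippocampal neurons were present in every library, at a summed level of 5441 to 8081 CPM. Markers of the choroid plexus, a tissue that borders the hippocampus, varied most, with sums of 171.4 to 11680 CPM in WT (median 2485) and 222.8 to 5148 CPM in mutants (median 444.4). All 5 of them (Ttr, Enpp2, Kl, Folr1 and Kcnj13) were above 0 in each group and lower in mutants at an unadjusted p under 0.05, and 0 of 5 passed the adjusted threshold. An unadjusted p under 0.05 with higher values in mutants was also found for 3 of 5 astrocyte, 3 of 5 thalamic and 3 of 5 striatal markers, of which Gja1 of astrocytes passed (log2 fold change 0.13, edgeR adjusted p 0.0362). Of 11 markers of hippocampal neurons 6 had an unadjusted p under 0.05, in both directions. Tdo2, Bok, Zbtb20 and Prox1 were higher and Fibcd1 and Neurod6 lower in mutants. Tdo2 alone passed, at 0.41 (edgeR adjusted p 0.0244). The choroid plexus sum serves as a covariate below, and the part of the other markers in the differences was not tested. Fewer cells of a type and less RNA per cell cannot be told apart in bulk tissue.

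Across the 36 libraries, 9 of the 187 genes differed between genotypes, of which Crb1, Colgalt2, Dsel and Tfcp2l1 were higher and Fam20b, Tmem37, Qsox1, Insig2 and Inhbb were lower in mutants. They passed an adjusted p of 0.05 in edgeR's quasi-likelihood test, with time point and sex as covariates and Benjamini-Hochberg adjustment over all genes. This is 4.81% of the 187, where 1.35% of all 17978 genes tested passed. Crb1 and Tmem37 reached the minimum of 1 CPM only through the genotype in which they were higher, since their mean in the other was below it. Of the 184 genes with at least 1 CPM in both genotypes 7 passed (3.8%), where 1.39% of 14485 such genes did in all. By direction it is 4 genes higher, where 0.879% of all genes were higher, and 5 genes lower, where 0.473% were lower. At an unadjusted p under 0.05 there were 51 genes (27.3%, background 15.4%). Most differences were small, with an absolute log2 fold change under 0.1 for 137 genes, from 0.1 to 0.25 for 39 and of 0.25 or more for 11. Without the 2 libraries of contradicted sex, 18 of the 187 genes passed, and 2.81% of all genes did.

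**Figure D1:**
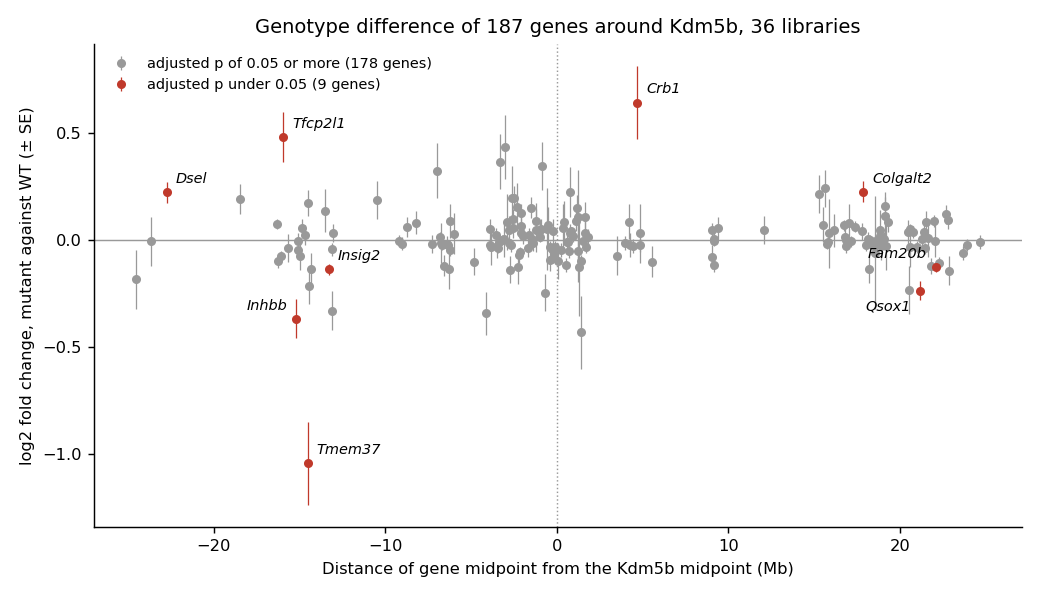
Log2 fold change of mutant against WT (vertical axis, bars are SE) of each of the 187 genes by the distance of its midpoint from that of Kdm5b in Mb (horizontal axis, negative at lower coordinates). The 9 red points passed an adjusted p of 0.05, and 1 of them lies within 10 Mb of Kdm5b.

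The promoters of the genes that passed are shown before their values, since KDM5B acts on a mark of promoters. RefSeq (GRCm38.p6) windows from 250 bases before to 50 bases after the start of transcription were found for 160 of the 187 genes and for 8 of the 9. The CG dinucleotide is enriched at promoters that carry trimethylated lysine 4 of histone H3, and it was counted on each window, taking the window with most CG where a gene had several. The 8 promoters had a median of 23 CG, the 160 promoters 19, and those of 11258 genes with at least 1 CPM 22. Windows with at least 10 CG made up 87.5% of the 8, 81.9% of the 160 and 84.6% of the 11258. The sequences below belong to the gene with the smallest adjusted p, the gene with the largest difference and the gene nearest to Kdm5b among the 9. They are those of the reference genome, and strain variants of the mice studied were not examined. They read 5′ to 3′ on the strand of the gene, here the minus strand for all 3, with each CG in capitals. Fam20b is at chr1:156718861-156719160 (43 CG), Tmem37 at chr1:120073731-120074030 (22 CG) and Crb1 at chr1:139377027-139377326 (4 CG).
Fam20b: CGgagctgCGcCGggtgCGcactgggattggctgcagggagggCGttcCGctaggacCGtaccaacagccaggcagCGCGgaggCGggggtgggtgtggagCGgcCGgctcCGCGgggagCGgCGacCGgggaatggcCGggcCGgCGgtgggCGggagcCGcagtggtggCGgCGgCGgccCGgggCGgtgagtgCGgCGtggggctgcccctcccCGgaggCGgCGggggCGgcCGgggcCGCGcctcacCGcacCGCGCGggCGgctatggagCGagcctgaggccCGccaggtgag
Tmem37: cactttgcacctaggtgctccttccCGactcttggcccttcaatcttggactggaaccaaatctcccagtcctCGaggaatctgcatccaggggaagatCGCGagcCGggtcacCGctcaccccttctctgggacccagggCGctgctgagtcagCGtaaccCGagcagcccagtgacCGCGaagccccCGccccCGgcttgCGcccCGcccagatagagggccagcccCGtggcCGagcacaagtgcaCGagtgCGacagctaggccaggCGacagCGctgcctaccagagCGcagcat
Crb1: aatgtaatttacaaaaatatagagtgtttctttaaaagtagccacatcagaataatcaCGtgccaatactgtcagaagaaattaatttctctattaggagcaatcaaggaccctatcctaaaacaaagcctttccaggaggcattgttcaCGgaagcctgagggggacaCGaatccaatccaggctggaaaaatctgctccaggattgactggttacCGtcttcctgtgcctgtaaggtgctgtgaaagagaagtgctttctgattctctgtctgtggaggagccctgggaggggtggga
The window of Fam20b is rich in CG and that of Crb1 holds few. The other 6 of the 8 genes, Tmem37 included, had 21 to 36 CG, with Dsel (23) and Tfcp2l1 (21), which were higher in mutants, near Inhbb (23), which was lower.

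Fam20b (156678562 to 156719095 on chromosome 1, 22.10 Mb from Kdm5b) encodes a kinase that phosphorylates xylose in the linker of proteoglycans. Fam20b ranged from 83.6 to 103 CPM in the 18 WT libraries (median 93.3) and from 81.4 to 90.6 CPM in the 18 mutant libraries (median 85.4). The ranges overlapped, and at each time point 0 of the 6 mutant libraries lay above the WT median. Fam20b fell by a small amount, and its log2 fold change was −0.12 with an SE of 0.02 (edgeR, adjusted p 0.00212). Qsox1 (155778155 to 155812899, 21.20 Mb), an oxidase that forms disulfide bonds in secreted proteins, also fell. Qsox1 ranged from 21.3 to 28.7 CPM in the 18 WT libraries (median 24.2) and from 18 to 26.6 CPM in the 18 mutant libraries (median 19.95). At 1 h the genotypes did not overlap, with 22.1 to 24.7 CPM in WT against 18 to 20.8 CPM in mutants. The log2 fold change over all libraries was −0.24 with an SE of 0.05 (edgeR, adjusted p 0.00407). With the summed choroid plexus markers as a covariate it was −0.20 (edgeR, adjusted p 0.0224).

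Colgalt2 (152399805 to 152510695, 17.86 Mb) adds galactose to collagen in the endoplasmic reticulum, and it rose in mutants. Colgalt2 ranged from 5.06 to 8.47 CPM in the 18 WT libraries (median 7.1) and from 7.03 to 9.22 CPM in the 18 mutant libraries (median 8.3). At each time point all 6 mutant libraries lay above the WT median, and at 1 h they lay above every WT library (6.38 to 7.94 CPM against 8.07 to 9.22 CPM). Its log2 fold change was 0.23 with an SE of 0.05 (edgeR, adjusted p 0.0114). Dsel (111858701 to 111865052, −22.73 Mb), a relative of the epimerase that makes dermatan sulfate, rose too. Dsel ranged from 16.5 to 24.7 CPM in the 18 WT libraries (median 20.04) and from 19.7 to 28.5 CPM in the 18 mutant libraries (median 24.3). The genotypes overlapped at every time point, and the log2 fold change was 0.22 with an SE of 0.05 (edgeR, adjusted p 0.0140).

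Tmem37 (120067377 to 120074069, −14.53 Mb), a membrane protein related to gamma subunits of calcium channels, had a very low level and the largest difference of the 9. Its mean was 1.58 CPM in WT and 0.763 CPM in mutants, so that it met the minimum of 1 CPM only through WT. Tmem37 ranged from 0.668 to 2.74 CPM in the 18 WT libraries (median 1.53) and from 0.304 to 1.44 CPM in the 18 mutant libraries (median 0.684). The genotypes overlapped, and 1 of the 18 mutant libraries lay above the WT median of its time point. Its log2 fold change was −1.04 with an SE of 0.19 (edgeR, adjusted p 0.00327). The choroid plexus markers moved in the same direction, and with their summed level as a covariate, an alternative chosen after seeing the data, the log2 fold change was −0.78 (adjusted p 0.0190). Insig2 (121304353 to 121332662, −13.28 Mb), which holds back cholesterol synthesis from the endoplasmic reticulum, fell slightly. Insig2 ranged from 42.9 to 52.7 CPM in the 18 WT libraries (median 48.7) and from 40.5 to 49.4 CPM in the 18 mutant libraries (median 44). The ranges overlapped at each time point, and the log2 fold change was −0.14 with an SE of 0.03 (edgeR, adjusted p 0.00407).

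Tfcp2l1 (118627923 to 118685168, −15.94 Mb) encodes a transcription factor of the grainyhead family and was higher in mutants. Tfcp2l1 ranged from 3.98 to 14.8 CPM in the 18 WT libraries (median 7.59) and from 6.41 to 15.5 CPM in the 18 mutant libraries (median 11.1). The highest WT value belonged to a 1 h mouse, and the genotypes overlapped at each time point. The log2 fold change was 0.48 with an SE of 0.12 (edgeR, adjusted p 0.0244). Inhbb (119415463 to 119422248, −15.18 Mb), the beta B subunit of activins and inhibins, was lower. Inhbb ranged from 8.81 to 15.2 CPM in the 18 WT libraries (median 11.8) and from 5.17 to 14.5 CPM in the 18 mutant libraries (median 8.65). It overlapped between genotypes at each time point, and the log2 fold change was −0.37 with an SE of 0.09 (edgeR, adjusted p 0.0357). Crb1 (139176649 to 139379316, 4.68 Mb), a cell polarity protein of the crumbs family, was higher and near the lower limit of expression. Its mean was 0.900 CPM in WT and 1.40 CPM in mutants, so that it met the minimum only through the mutants. Crb1 ranged from 0.389 to 1.99 CPM in the 18 WT libraries (median 0.752) and from 0.656 to 2.41 CPM in the 18 mutant libraries (median 1.29). The genotypes overlapped at each time point, and the log2 fold change was 0.64 with an SE of 0.17 (edgeR, adjusted p 0.0482).

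**Figure D2:**
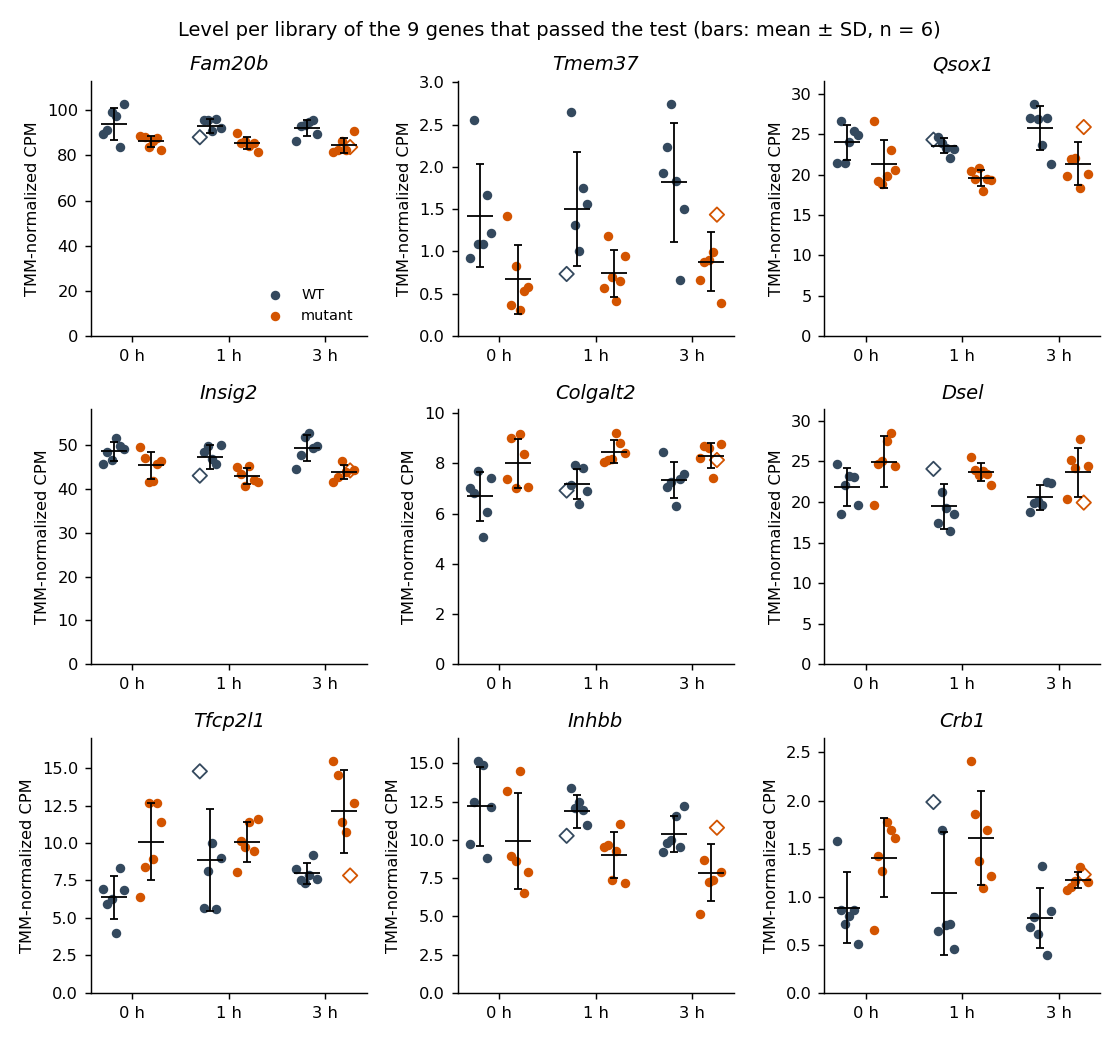
TMM-normalized CPM (vertical axes, starting at 0) of the 9 genes that passed, in each library at 0, 1 and 3 h (horizontal axes), with bars for mean ± SD of 6 libraries and open diamonds for the 2 libraries of contradicted sex. The genotypes separate fully at 1 h for Qsox1 and Colgalt2.

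No other counted gene overlaps any of the 9 in the RefSeq annotation. With each of the 36 libraries left out in turn, 7 of the 9 genes passed in all 36 fits, Inhbb in 23 (adjusted p 0.0111 to 0.0633) and Crb1 in 8 (adjusted p 0.0132 to 0.0787). With the choroid plexus markers as a covariate, 8 of the 187 genes and 1.12% of all genes passed. They were Fam20b, Tmem37, Qsox1, Insig2 and Colgalt2 of the 9, together with Htr5b at −0.39 (edgeR, adjusted p 0.0316), Uchl5 at −0.14 (edgeR, adjusted p 0.0332) and Tmem183a at −0.09 (edgeR, adjusted p 0.0484). The values of the other genes among the 9 then were 0.19 (adjusted p 0.0551) for Dsel, 0.41 (adjusted p 0.0756) for Tfcp2l1, −0.35 (adjusted p 0.0586) for Inhbb and 0.63 (adjusted p 0.0817) for Crb1.

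A further 42 genes had an unadjusted p under 0.05 without passing the adjustment, 23 with higher and 19 with lower values in mutants, and log2 fold changes from −0.43 to 0.44. Htr5b, a serotonin receptor, was first among them. Htr5b ranged from 5.12 to 11 CPM in the 18 WT libraries (median 7.4) and from 3.5 to 8.19 CPM in the 18 mutant libraries (median 6.01), and the log2 fold change was −0.33 with an SE of 0.09 (edgeR, adjusted p 0.0608). Arl8a, a small GTPase of lysosomes that lies 0.56 Mb from Kdm5b, came next. Arl8a ranged from 156 to 202 CPM in the 18 WT libraries (median 183) and from 141 to 190.4 CPM in the 18 mutant libraries (median 165), and the log2 fold change was −0.12 with an SE of 0.03 (edgeR, adjusted p 0.0608). Cd55, which shields cells from complement, had a log2 fold change of −0.34 with an SE of 0.10 (edgeR, adjusted p 0.0708), and with the choroid plexus markers as a covariate the value was −0.16 (adjusted p 0.278). Ralgps2, an exchange factor for Ral GTPases, was at −0.11 with an SE of 0.03 (edgeR, adjusted p 0.0671) and overlaps Angptl1 in the annotation. Tmem9, a protein of lysosomes, was at −0.10 with an SE of 0.03 (edgeR, adjusted p 0.0726) and overlaps Igfn1. Tsn, the nucleic acid binding protein translin, was at 0.08 with an SE of 0.02 (edgeR, adjusted p 0.0908), and Soat1, which esterifies cholesterol, at −0.12 with an SE of 0.04 (edgeR, adjusted p 0.0925). Without the 2 libraries, 9 of the 42 passed, with an adjusted p of 0.0218 for Arl8a, 0.0402 for Cd55, 0.0380 for Ralgps2, 0.0407 for Tmem9, 0.0145 for Tsn, 0.0266 for Soat1, 0.0256 for Clasp1, 0.0420 for Dbi and 0.0447 for Nifk. The last 3 were named after their values were seen, to complete the count.

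Kdm5b itself (134560178 to 134632878) overlaps Mgat4e. Kdm5b ranged from 79.6 to 96.8 CPM in the 18 WT libraries (median 88.8) and from 75.6 to 93.6 CPM in the 18 mutant libraries (median 83.7). The log2 fold change was −0.08 with an SE of 0.02 (edgeR, adjusted p 0.0494), and it passed in 6 of the 36 fits that left out a library (adjusted p 0.0119 to 0.0881). The count takes in the whole gene, the part outside the deletion included, so it is no check of the labels.

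The 12 genes nearest to Kdm5b lie within 0.45 Mb, and 0 of them passed, where 1.35% of all genes did. An unadjusted p under 0.05 was found for 2 of the 12 (16.7%), near the share over all genes (15.4%). Rabif (−0.10 Mb), a chaperone of Rab GTPases, is the closest at lower coordinates. Rabif ranged from 26.4 to 31.4 CPM in the 18 WT libraries (median 28.5) and from 24.8 to 30.9 CPM in the 18 mutant libraries (median 27.6), and the log2 fold change was −0.04 with an SE of 0.03 (edgeR, adjusted p 0.428). Syt2 (0.10 Mb), a calcium sensor of synaptic vesicles, is the closest at higher coordinates. Syt2 ranged from 10.9 to 22.3 CPM in the 18 WT libraries (median 17.2) and from 10.9 to 21.5 CPM in the 18 mutant libraries (median 15.5), and the log2 fold change was −0.10 with an SE of 0.08 (edgeR, adjusted p 0.641). Both genes overlapped almost completely between genotypes. Klhl12, an adaptor of a ubiquitin ligase, was at −0.03 (SE 0.03) on the log2 scale, Adipor1, an adiponectin receptor, at −0.06 (SE 0.03) and Cyb5r1, a reductase, at 0.04 (SE 0.06). Tmem183a was at −0.08 with an SE of 0.02 (edgeR, adjusted p 0.0648), the smallest adjusted p of the 12, and with the choroid plexus covariate it passed (edgeR, adjusted p 0.0484). Ppp1r12b, a myosin phosphatase subunit, had a log2 fold change of −0.05 (SE 0.03), Ppfia4, a liprin of the presynaptic active zone, −0.04 (SE 0.03) and Adora1, the adenosine A1 receptor, −0.03 (SE 0.03). For Ube2t, a ubiquitin-conjugating enzyme, it was 0.06 (SE 0.11), for Chil1, a secreted chitinase-like protein, −0.09 (SE 0.06) and for Lgr6, a receptor of R-spondins, 0.09 (SE 0.10).

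By absolute distance, 1 of 84 genes passed at 0 to 5 Mb, 0 of 23 at 5 to 10 Mb, 2 of 14 at 10 to 15 Mb, 3 of 40 at 15 to 20 Mb and 3 of 26 at 20 to 25 Mb. The share with an unadjusted p under 0.05 was 22.6% (19 genes), 13% (3), 42.9% (6), 30% (12) and 42.3% (11) in the same order. Over all genes tested 1.35% passed and 15.4% had an unadjusted p under 0.05. In this fit the share that passed within 10 Mb and the unadjusted share at 5 to 10 Mb were thus not above the background. With DESeq2 in place of edgeR, Cd55, Cdk18, Tmem183a, Arl8a, Tmem9, Crb1 and Uchl5 were called within 10 Mb. That was a larger share than the 3.09% of all genes that DESeq2 called. The order of the steps depended on their width and on time. In steps of 2.5 Mb the unadjusted share was 23.6% within 2.5 Mb and 20.7% at 2.5 to 5 Mb, 40.9% of 22 genes at 15 to 17.5 Mb and 16.7% of 18 genes at 17.5 to 20 Mb. At single time points the unadjusted p was under 0.05 in the 5 steps of 5 Mb for 5, 2, 3, 4 and 4 genes at 0 h, for 10, 1, 3, 3 and 7 at 1 h and for 7, 2, 4, 7 and 4 at 3 h. Over all genes the unadjusted p was under 0.05 for 6.14%, 8.5% and 6.29% at 0, 1 and 3 h. The shares at 0 to 5 Mb at 0 h (5.95%), at 5 to 10 Mb at 1 h (4.35%) and at 15 to 20 Mb at 1 h (7.5%) were below these. The step at 10 to 15 Mb holds few genes. The median absolute log2 fold change was 0.05 at 0 to 5 Mb, 0.13 at 10 to 15 Mb, where the median level was lowest (8.93 CPM), and 0.06 at 20 to 25 Mb. Over the 187 genes, distance and absolute log2 fold change had a Pearson r of 0.01 and a Spearman rho of −0.03, a description only, since neighbouring genes share libraries and haplotypes. Without the 2 libraries the counts that passed were 4, 0, 3, 6 and 5, where 2.81% of all genes passed. The share at 0 to 5 Mb was then above that of all genes.

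On the side of lower coordinates, the unadjusted p was under 0.05 for 13 of 52 genes within 5 Mb, 2 of 16 at 5 to 10 Mb, 6 of 13 at 10 to 15 Mb, 6 of 9 at 15 to 20 Mb and 1 of 3 beyond. On the side of higher coordinates it was so for 6 of 32, 1 of 7, 0 of 1, 6 of 31 and 10 of 23. The genes were also split at their median level, a measure on which the minimum of 1 CPM had already selected. Of 93 genes below the median level, 7 passed and the median absolute log2 fold change was 0.09. Of 94 genes at or above it, 2 passed and the median was 0.04. Of all genes with at least 1 CPM, 1.6% passed below that level and 1.29% at or above it, with medians of 0.06 and 0.03. Tmem37 and Crb1 are among the 7, and of the 90 genes below the level with at least 1 CPM in both genotypes 5 passed (5.56%), where 1.5% of all such genes did. An unadjusted p under 0.05 was found for 26 genes below (28%, all genes 15.8%) and 25 genes at or above the level (26.6%, all genes 17.0%). The part of level in the pattern by distance was not tested.

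Other regions served for comparison. Outside the window, 29 of 653 chromosome 1 genes passed (4.44%) and 27.1% had an unadjusted p under 0.05, near the shares of the 187 genes (4.81% and 27.3%). Off chromosome 1 these shares were 1.27% and 15.9% of 13463 genes. Among the other chromosomes the share that passed ran from 0.558% on chromosome 5 to 3.39% on the X. In steps of 25 Mb along chromosome 1, the share with an unadjusted p under 0.05 was 37.2% of 129 genes from 75 to 100 Mb, 50% of 38 from 100 to 125 Mb, 22.3% of 112 from 125 to 150 Mb, where Kdm5b lies, and 37.1% of 170 from 150 to 175 Mb. It was 22.6% of 62 genes from 0 to 25 Mb, 14.8% of 88 from 25 to 50 Mb, 23.5% of 132 from 50 to 75 Mb and 15.8% of 114 beyond 175 Mb. No test compared these regions. Without the 2 libraries, 9.63% of the 187 genes, 8.73% of the other chromosome 1 genes and 2.71% of the genes off chromosome 1 passed.

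**Figure D3:**
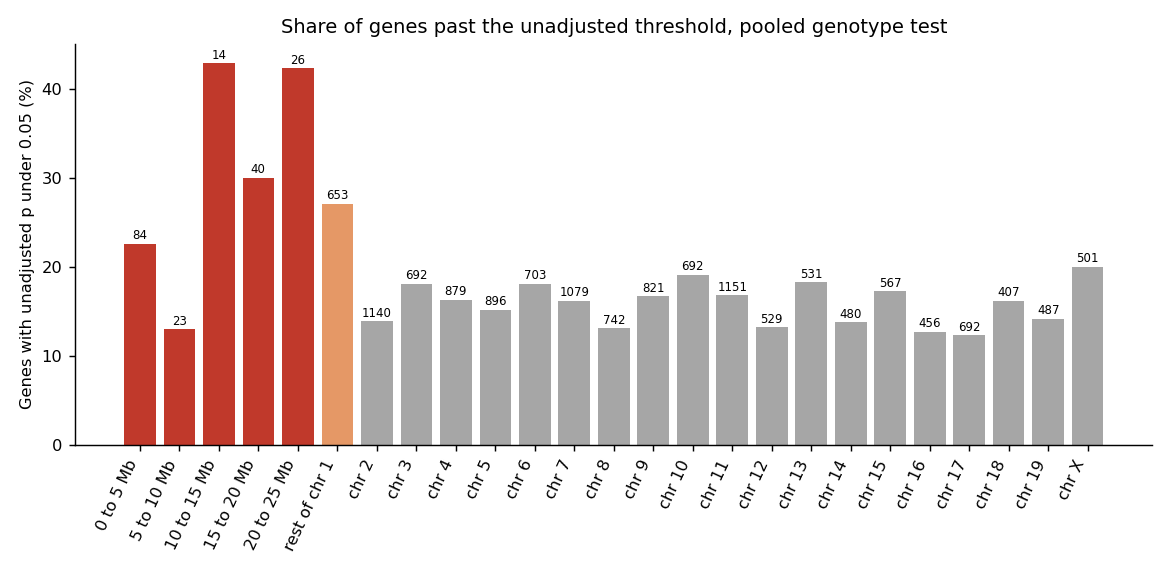
Percentage of genes with an unadjusted p under 0.05 between genotypes over 36 libraries (vertical axis), for the 187 genes by distance from Kdm5b, the rest of chromosome 1 and each other chromosome, with the number of genes above each bar. The rest of chromosome 1, at 27.1%, lies above every other chromosome, of which the X is highest and chromosome 17 lowest at 12.3%.

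Grouped by function, with lists drawn up when earlier results of these data were known, 3 of 11 genes of the extracellular matrix and secretion passed (Colgalt2 higher, Qsox1 and Fam20b lower). Prelp, a matrix protein of the same list, was at −0.24 with an SE of 0.09 (edgeR, adjusted p 0.151). In the list of transcription and chromatin 2 of 20 passed, Tfcp2l1 higher and Inhbb lower, the latter a secreted ligand. In the list of adhesion and guidance 1 of 16 passed (Crb1, higher). Igfn1 of that list was at −0.43 with an SE of 0.17 (edgeR, adjusted p 0.196), with reads possibly shared with Tmem9. None passed among 22 kinases, phosphatases and GTPase regulators, 22 genes of metabolism and ion transport, 19 of vesicle traffic, 10 receptors, 7 complement and immune genes and 5 regulators of G protein signalling, and 6, 5, 5, 4, 3 and 0 of these had an unadjusted p under 0.05. Over all genes tested 1.35% passed and 15.4% had an unadjusted p under 0.05 (4.81% and 27.3% of the 187), and no list was compared with the others by a test.

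Among the genes of these lists that did not pass, Atp2b4, a calcium pump of the plasma membrane −0.84 Mb from Kdm5b, had a large difference for its level. Atp2b4 ranged from 58.7 to 145 CPM in the 18 WT libraries (median 89.2) and from 66.6 to 170.1 CPM in the 18 mutant libraries (median 118). The ranges overlapped widely, and the log2 fold change was 0.35 with an SE of 0.11 (edgeR, adjusted p 0.109). Avpr1b, a vasopressin receptor, was at 0.44 with an SE of 0.15 (edgeR, adjusted p 0.132) and Ikbke, a kinase of innate immunity, at 0.37 with an SE of 0.13 (edgeR, adjusted p 0.135). Cdk18, a cyclin-dependent kinase, was at 0.20 with an SE of 0.06 (edgeR, adjusted p 0.0661) and Pik3c2b, a lipid kinase, at 0.15 with an SE of 0.05 (edgeR, adjusted p 0.0946). Tmem163, a zinc transporter of synaptic vesicles, was at 0.33 (SE 0.13), Rab29, a Rab GTPase, at −0.14 (SE 0.06) and Pla2g4a, a phospholipase that releases arachidonic acid, at 0.22 (SE 0.09). Rgs2 and Rgs16, which end signalling by G proteins, were at 0.06 (SE 0.05) and 0.11 (SE 0.09).

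Within single time points, 6 mutants were compared with 6 WT mice. With edgeR, 0 of the 187 genes passed at 0 h (background 0.0%), 0 at 1 h (background 0.0%) and 0 at 3 h (background 0.0112%). The unadjusted p was under 0.05 for 18 genes at 0 h (9.63%, background 6.14%), 24 at 1 h (12.8%, background 8.5%) and 24 at 3 h (12.8%, background 6.29%). DESeq2 called 0 of the 187 genes at 0 h, Qsox1 and Dsel at 1 h, where it called 0.611% of all genes, and Tfcp2l1 at 3 h, where it called 0.27%. These 3 genes were also called by edgeR once the library of contradicted sex was left out. Without WT 1 h male 1, the adjusted p at 1 h was 0.0396 for Qsox1 and 0.0468 for Dsel, and without mutant 3 h female 2 it was 0.0329 at 3 h for Tfcp2l1. Of all genes, 0.241% and 0.0946% passed in these fits.

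The values of the 9 genes at single time points describe how the difference was spread over time. The genes were chosen on the same 36 libraries, which favours a like sign at each time, and 49 of the 51 genes with an unadjusted p under 0.05 over all libraries had 1 sign throughout. Fam20b had medians of 94.3 and 87 CPM at 0 h, 93.8 and 85.4 CPM at 1 h, and 93.3 and 83.1 CPM at 3 h in WT and mutants, and its log2 fold changes were −0.13, −0.12 and −0.12 at 0, 1 and 3 h. Tmem37 had medians of 1.15 and 0.554 CPM at 0 h, 1.44 and 0.674 CPM at 1 h, and 1.88 and 0.890 CPM at 3 h, with −1.14, −1.01 and −0.999 on the log2 scale. Colgalt2 had medians of 6.93 and 7.89 CPM at 0 h, 7.03 and 8.29 CPM at 1 h, and 7.31 and 8.43 CPM at 3 h, with 0.26, 0.24 and 0.18. These and Crb1, at 0.65, 0.72 and 0.60, had an unadjusted p under 0.05 at each time point, as did 0.424% of 14390 other genes (2.14% of the 187). Among genes with at least 1 CPM in both genotypes, which leaves out Tmem37 and Crb1, this held for 2 of 184 (1.09%) and for 0.392% of 14301 other genes. Insig2 was at −0.10, −0.14 and −0.17, Qsox1 at −0.17, −0.27 and −0.27, Dsel at 0.19, 0.28 and 0.21 and Inhbb at −0.30, −0.40 and −0.41, with an unadjusted p under 0.05 at 1 h and 3 h. Tfcp2l1, at 0.65, 0.19 and 0.59, was smallest at 1 h, where its WT libraries ranged most (5.6 to 14.8 CPM).

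**Figure D4:**
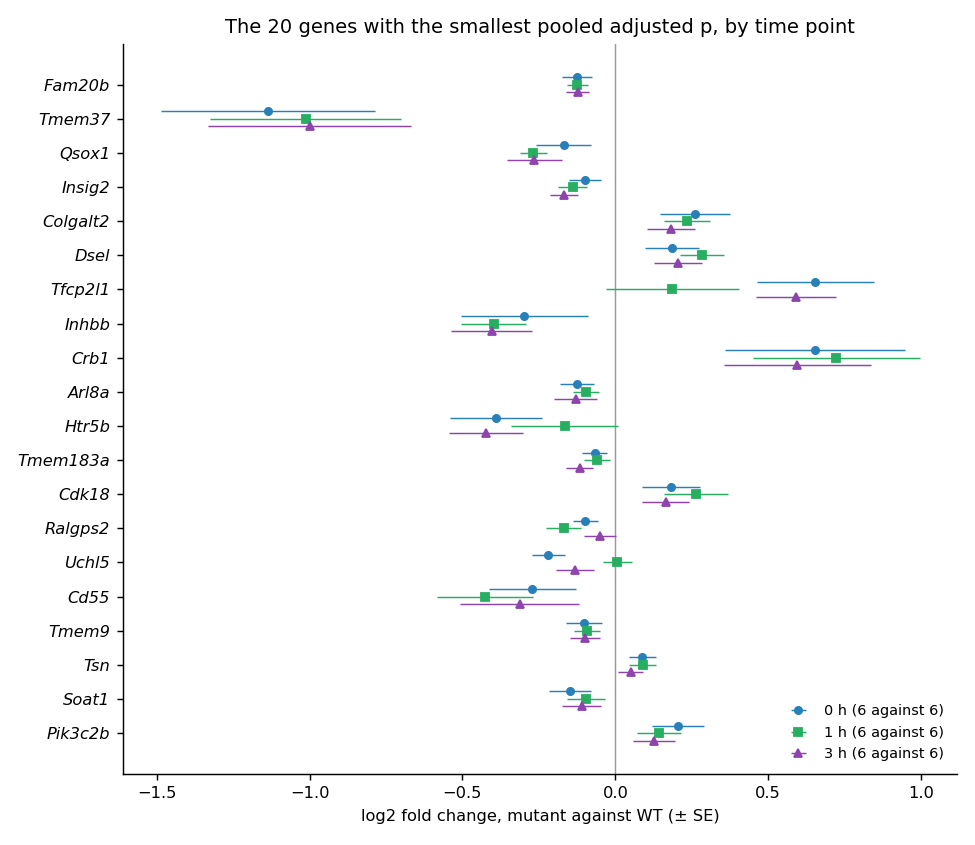
Log2 fold change of mutant against WT (horizontal axis, bars are SE) at 0, 1 and 3 h for the 20 genes with the smallest adjusted p over all libraries, each from 6 against 6 libraries. The genes were chosen on these same libraries, so a like sign over time is no independent agreement, and Uchl5 is at 0.01 at 1 h.

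Of the 187 genes, 91 kept their sign at all 3 time points (48.7%), against 53.0% of the other chromosome 1 genes and 40.1% of genes off chromosome 1. The log2 fold changes of the 187 genes had a Pearson r of 0.60 between 0 and 1 h, 0.75 between 0 and 3 h and 0.55 between 1 and 3 h. Over 14390 other genes r was 0.52, 0.60 and 0.36. These are correlations across genes, which are not independent replicates. By distance, 46.4%, 39.1%, 64.3%, 45.0% and 61.5% of the genes in the 5 steps from Kdm5b outward kept their sign.

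A genotype difference that changes with time was tested as an interaction. With edgeR 0 of 187 genes passed (background 0.0%), DESeq2 also called 0, and 4 had an unadjusted p under 0.05 (2.14%, background 2.89%). Nucks1, a nuclear protein that binds DNA, had the smallest p, 0.00218 (edgeR, adjusted p 1.0). Its medians in WT and mutants were 168 and 187 CPM at 0 h, 181 and 169.7 CPM at 1 h, and 176 and 165 CPM at 3 h, higher in mutants at 0 h and lower afterwards, with overlap at each time. Uchl5, a deubiquitinase of the proteasome, had an interaction p of 0.0173 (edgeR, adjusted p 1.0). At 0 h it was the only gene of the 187 whose genotypes did not overlap (29.1 to 34 CPM in WT against 26 to 28.2 CPM in mutants), and its log2 fold changes were −0.22, 0.01 and −0.13. For 2310009B15Rik they were −0.19, 0.17 and −0.05, with an interaction p of 0.0237 (edgeR, adjusted p 1.0). Genotypes did not overlap for 1, 2 and 0 of the 187 genes at 0, 1 and 3 h, where this held for 0.24%, 0.617% and 0.35% of genes with at least 1 CPM.

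The response to training was compared over both genotypes. From 0 h to 1 h, 2 of 187 genes passed (1.07%, background 1.16%) and 35 had an unadjusted p under 0.05 (18.7%, background 12.8%). Slc41a1, a magnesium transporter, had medians in WT and mutants of 107 and 102 CPM at 0 h, 114 and 115 CPM at 1 h, and 115 and 116 CPM at 3 h, and its log2 fold change at 1 h was 0.12 (SE 0.03, edgeR, adjusted p 0.0220). From 0 h to 3 h, 5 passed (2.67%, background 2.69%) and 42 had an unadjusted p under 0.05 (22.5%, background 16.2%). Slc41a1 was at 0.15 (SE 0.03, edgeR, adjusted p 0.00301), Rnpep, an aminopeptidase, at 0.13 (SE 0.03, edgeR, adjusted p 0.0107) and Ccnt2, a cyclin of transcription elongation, at 0.12 (SE 0.03, edgeR, adjusted p 0.0226). Rasal2, a Ras GTPase activator, was at 0.20 (SE 0.05, edgeR, adjusted p 0.0299) and Kif21b, a kinesin, at −0.20 (SE 0.05, edgeR, adjusted p 0.0321). The last 2 were named after their values were seen, to complete the count. The shares that passed are near the background at both times.

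Among 11 linked genes known to respond to neuronal activity, 0 passed at 1 h or 3 h. At 1 h Abl2, a tyrosine kinase, had the smallest p of the list and was at 0.11 (SE 0.04, edgeR, adjusted p 0.162), while Mapkapk2, a kinase of the stress response, was at 0.09 (SE 0.04, edgeR, adjusted p 0.347). Btg2, an early gene that slows proliferation, was at 0.22 (SE 0.11, edgeR, adjusted p 0.395), Rgs16 at 0.28 (SE 0.11, edgeR, adjusted p 0.272) and Ier5, an immediate early gene, at 0.15 (SE 0.07, edgeR, adjusted p 0.320) at 1 h. At 3 h Ptgs2, the inducible cyclooxygenase, was at 0.22 (SE 0.10, edgeR, adjusted p 0.295), Inhbb at −0.29 (SE 0.11, edgeR, adjusted p 0.176) and Mapkapk2 at 0.09 (SE 0.04, edgeR, adjusted p 0.223). Others with small p at 1 h were Elk4, a partner of serum response factor that overlaps Mfsd4a, at 0.21 (SE 0.06, edgeR, adjusted p 0.0723), and Ppp1r15b, a phosphatase subunit of the stress response, at 0.12 (SE 0.03, edgeR, adjusted p 0.0727). The cAMP response element TGACGTCA, identical on both strands, occurs in the promoter windows of Btg2, Tmem183a and Klhl12, 1.88% of the 160, and in 3.22% of the 11258. Without the 2 libraries, 8 linked genes passed at 1 h, where 2.47% of all genes did, and 10 at 3 h, where 3.83% did.

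Each library was last placed between the genotypes, using the linked genes that passed in a fit without it and counting those whose log2 CPM was nearer to the median of the other genotype. A gene that passes only without a library is often one in which that library lay toward the other genotype, which raises the share. The sets of genes also differ between libraries, so the shares are a description only. The share had a median of 27.5% over WT and 14.3% over mutant libraries, was 0 in 5 libraries and exceeded 50% in 4. Those were mutant 0 h male 1 (14 of 15 genes), WT 1 h male 1 (12 of 15), WT 0 h male 1 (8 of 11) and mutant 3 h female 2 (6 of 9), of which WT 1 h male 1 and mutant 3 h female 2 have contradicted sex. In each of these libraries, all genes that passed only without it were among those counted. In mutant 0 h male 1 the counted genes lay on both sides of Kdm5b, from Dsel and Tfcp2l1 through Arl8a and Crb1 to Qsox1. That library also had the highest sum of striatal markers (69.1 CPM, against at most 45.9 CPM in WT), whose part in the position was not tested. Mutant 3 h female 2 had the highest sums of thalamic markers (139.1 CPM, against at most 82.8 CPM in WT) and of oligodendrocyte markers (10830 CPM, against at most 9014 CPM in WT), whose part was not tested either. Without mutant 0 h male 1, 15 of the 187 genes and 2.06% of all genes passed, and the same was found without WT 1 h male 1. Whether such a library differs in genotype from its label cannot be read from counts of whole genes.

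**Figure D5:**
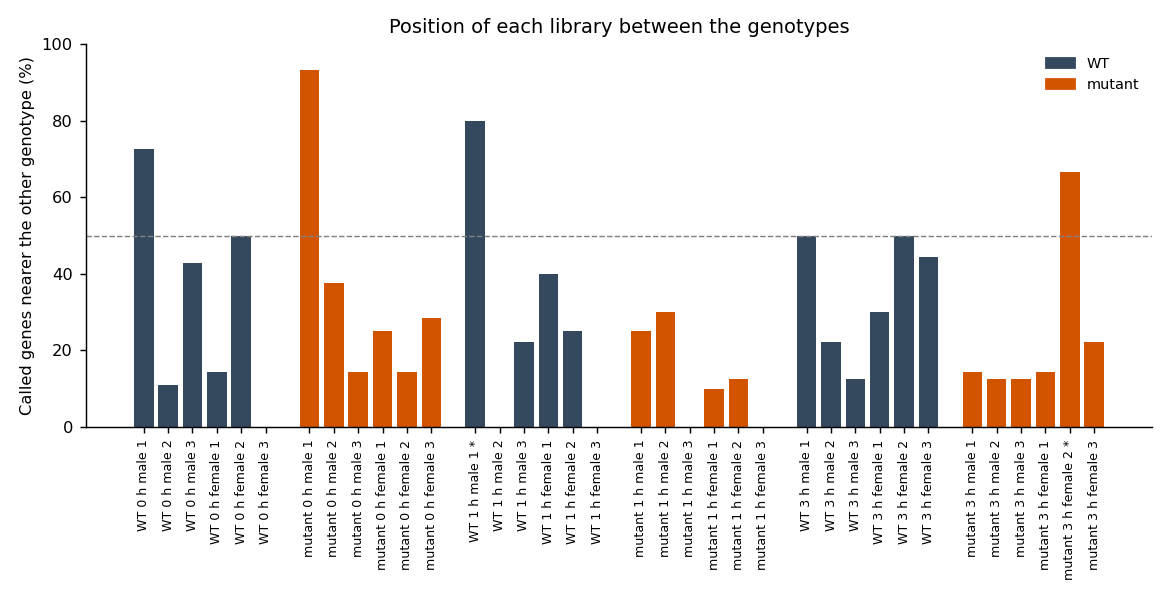
For each library (horizontal axis), the percentage of linked genes, out of those that passed without it, whose level was nearer to the median of the other genotype (vertical axis); asterisks mark the 2 libraries of contradicted sex and the dashed line is at 50%. The line is exceeded by 4 libraries, 2 of each genotype.

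At the limits of the rule, Tnnt2 (1.02 CPM) and Aspm (1.08 CPM) were the lowest genes kept, and Pappa2 (0.994 CPM) and Angptl1 (0.989 CPM) the highest left out. Cdh7 (−24.53 Mb) and Cop1 (24.70 Mb) were the outermost genes inside the window, and Serpinb8 (−27.00 Mb) and Tnr (25.13 Mb) the first outside it.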

How the data were processed

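Poly-A libraries were sequenced as paired-end reads, and the authors aligned them to mm10 with RNA STAR 2.7.8a and counted reads with featureCounts 2.0.1. Both genotypes were aligned to the same reference genome, and the part of strain differences in the mapping of reads from linked genes was not tested. Gene annotation, strand setting and treatment of multi-mapping reads are not given in the sources used here. The authors deposited raw counts, a file for each library. The 8 samples of another cohort were not analysed here. Genes without a RefSeq name (GRCm38.p6) held 1.28% of the counts.

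Members and lists were chosen with earlier results of these data known. Genes kept by filterByExpr (minimum count 10) were scaled by TMM and tested with edgeR 4.0.16 (limma 3.58.1, R 4.3.3), using the robust quasi-likelihood F-test and Benjamini-Hochberg adjustment over all genes kept. All 187 members were kept in every fit. The model over 36 libraries had time point and sex as covariates, those within a time point had sex, and the interaction tested both of its terms together. Levels are TMM-normalized CPM. Precision is limited by 6 mice per group.

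The text names the 12 genes nearest to Kdm5b, the 20 with the smallest adjusted p over all libraries, those called at a time point, the 3 with the smallest interaction p, the 2 with the largest difference in each list, the first training responses (6 at 1 h, 3 at 3 h), the activity list, genes at the limits of the rule and Kdm5b. The values of 2 genes this rule names are not reported here. In simulated counts with 50 genes changed at each size, the fit over all libraries (17978 genes) called 5 for an absolute log2 difference of 0.1, 27 for 0.25, 39 for 0.5 and 48 for 1, and the fit at 1 h (17679 genes) called 0, 9, 30 and 33. Alternatives were DESeq2 1.42.0, RLE factors, no low-count filter, 10 counts in every library, no sex covariate, sex as the transcripts show it, the replicate number as a block, no robust option, all libraries in 1 fit for the time points, leaving out each library or the 2 libraries, at least 5 CPM, a window of 10 Mb, steps of 2.5 Mb and, chosen after seeing the data, a choroid plexus covariate. Tables and figures used Python 3.11.15, pandas 2.3.3, NumPy 2.4.6, SciPy 1.17.1 and Matplotlib 3.10.9.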

Additional observations from a re-analysis of the deposited data

Results flagged for a closer look

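Of 60 groups of 6 libraries, 6 for each of the 9 genes that passed and for Kdm5b, 1 held a library far from the others. For Crb1 in WT mice at 0 h, WT 0 h male 1 was at 1.58 CPM and the next library at 0.864 CPM, a gap of 0.666 of the range of the group. Chance alone flags about 1 in 20 such groups.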

How the results depend on the processing

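DESeq2 called 17 linked genes over all libraries (3.09% of all genes, against 1.35% with edgeR) and leaving out the 2 libraries of contradicted sex gave 18 (2.81% of all genes), and each of these sets held the 9 genes that passed. Within 10 Mb of Kdm5b 1 gene, Crb1, passed with edgeR over all libraries. There DESeq2 called Crb1, Cd55, Cdk18, Tmem183a, Arl8a, Tmem9 and Uchl5, and without the 2 libraries Crb1, Cd55, Arl8a and Tmem9 passed. Leaving out each library gave 7 to 15 of the 187 genes, with 15 both without WT 1 h male 1 and without mutant 0 h male 1, and the other settings gave 7 to 11. At 1 h DESeq2 called 2 genes, as did edgeR without the 2 libraries, and leaving out each library gave 0 to 2. At 3 h both gave 1, and leaving out each library 0 to 1. For the training response DESeq2 called 6 genes at 1 h and 8 at 3 h (2.31% and 4.56% of all genes), and without the 2 libraries 8 and 10 passed (2.47% and 3.83%). The cause was not tested. Under the alternatives run, 0 genes were called at 0 h and in the interaction. Crb1 did not pass without the low-count filter (edgeR, adjusted p 0.0527) or without the sex covariate (0.0536). Deviations of same-numbered WT and mutant libraries had correlations from −0.224 to 0.324, above 0.1 in 9 of 18 pairs. Libraries of unlike number were not compared, so whether replicate numbers pair the mice was not tested. With sex and replicate number as a block across time points 10 genes passed, the 9 and Cdk18. The share of the nearest genes with an unadjusted p under 0.05 was 23.6% within 2.5 Mb and 21.9% at 5 CPM or more. The number of genes that kept their sign was 91 with and without the 2 libraries, and 80 genes were in both counts. Over all libraries, the 9 genes that passed kept their direction in the alternatives run. Without the 2 libraries 18 of the 187 genes changed sign, each with an absolute log2 fold change of at most 0.04 over all libraries.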
